A study of Mus musculus with 4 samples.

Results

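Zfp503 and Zfp703, the genes of the NET family of zinc-finger repressors, and Tle1, Tle2, Tle3 and Tle4, the genes of the full-length Groucho corepressors, were examined in fetal mouse cerebral cortex with and without Cd93. The members are the rows of both deposited tables that carry one of these 6 names. All 6 were found once in each table and passed the filter on low counts, among 20385 genes listed in both tables and 16371 tested. The study's title places ZFP503 downstream of CD93, a transmembrane lectin receptor, and of its ligand MMRN2 in the control of astrogenesis.

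The samples were 4 RNA-seq libraries of dissected cerebral cortex from C57BL/6 embryos at embryonic day 16, WT 1 and WT 4 from wild type and KO 5 and KO 6 from the Cd93 knockout (KO). Which part of Cd93 the allele removes, and in which cells, is not given in the sources used here, nor is it stated that each library came from its own embryo, so p-values measure the spread between these libraries. Table A of the authors pairs KO 6 and WT 1, and their table B pairs KO 5 and WT 4, so ratios within a table are given beside the pooled values. Library totals ran from 16318317 to 17586157 counts, and 3 counts correspond to 0.171 to 0.184 CPM, the count scaled to the library's total. Counts of Cd93 itself were 680 (WT 1), 409 (WT 4), 111 (KO 5) and 99 (KO 6), an order that follows the genotype labels. All 14 marker genes of cerebral cortex were detected in every library, with summed levels of 5838 and 6822 CPM in WT 1 and WT 4 and 6935 and 6376 CPM in KO 5 and KO 6.

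NET proteins carry a single atypical zinc finger and act as repressors through partner proteins rather than as classical DNA-binding factors. Groucho proteins do not bind DNA themselves. They are recruited by factors such as the Hes, Runx and Tcf families and silence the bound genes with histone deacetylases. In the forebrain Zfp503 is known as a gene of the developing striatum, the ventral territory beneath the cortex, while Tle genes are expressed in progenitors and neurons of the cortex itself.

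The coding stretch of the zinc finger is shown because it defines the NET family and bears on whether reads of the paralogs can be told apart. Capitals mark the codons of the paired cysteines and histidines, read 5′ to 3′ from the longest open reading frames of the GENCODE transcripts on GRCm38.
Zfp503: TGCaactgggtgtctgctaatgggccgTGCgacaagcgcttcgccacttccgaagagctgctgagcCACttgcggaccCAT
Zfp703: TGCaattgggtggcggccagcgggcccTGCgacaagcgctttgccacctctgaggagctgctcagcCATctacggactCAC
Of the 81 bases 64 were identical (79.01%), and 25 of the 27 codons encoded the same residue. The finger spans codons 522 to 548 of 652 in Zfp503 and codons 462 to 488 of 594 in Zfp703. The longest identical run between their reading frames was 20 bases, and the paralogs shared 0% of their 25-base words, so no stretch of 25 bases could be counted for both.

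Among the members, Tle1 and Tle4 had the longest stretch in common. Their reading frames share an identical run of 68 bases, beginning in codon 494 of Tle1 and codon 487 of Tle4, and of the other pairs of members Tle1 and Tle3 had the longest run, of 23 bases. The shared stretch is shown because reads wholly inside it cannot be assigned to either gene.
Tle1 and Tle4: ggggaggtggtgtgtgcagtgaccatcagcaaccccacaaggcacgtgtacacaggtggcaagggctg
Words of 25 bases shared with another member made up 1.27% of those of Tle1 and 1.97% of those of Tle4, and 0% of those of Tle2 and Tle3. Zfp703 shared 12.1% of its words with Gm45371, an antisense gene that overlaps 459 of its exon bases. Gm11250 overlaps 247 exon bases of Tle1 and Gm15917 overlaps 98 of Tle2, also as antisense genes. None of these 3 antisense genes was listed in both tables, and no source used here states whether the counting used strand, so their reads cannot be told apart from those of the members.

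Zfp503, a repressor gene named in the study's title, had less signal in either KO library than in either WT library, but WT 1 and WT 4 lay far apart. It had the widest spread of the 6 genes. The gene (ENSMUSG00000039081, GRCm38 chromosome 14, 21983959 to 21989601, minus strand, 3 merged exon blocks) received 517 (WT 1), 122 (WT 4), 43 (KO 5) and 77 (KO 6) counts. Scaled to depth, these were 29.1, 7.16, 2.45 and 4.74 CPM. This order of the genotypes, both KO libraries below both WT libraries, was found in 11.9% of all tested genes, and WT 1 stood 4.06-fold above WT 4. The gap between the WT libraries was wider than in 98.8% of tested genes, and that between the KO libraries, with KO 6 1.93-fold above KO 5, wider than in 95.2%. WT 1 also had the highest summed levels of ventral forebrain and meningeal markers, given further on, and in bulk tissue fewer cells of a type and less RNA per cell cannot be told apart.

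The Zfp503 difference between genotypes did not pass the test across all genes with 2 libraries per genotype. The WT mean was 18.1 ± 15.5 CPM and the KO mean 3.60 ± 1.62 CPM (SD, n = 2 each), a 5.03-fold lower level. The log2 fold change was -2.34 (SE 0.66, 95% interval -3.93 to -0.75), which ranks 45 by p among all genes. The quasi-likelihood test of edgeR gave an adjusted p of 0.9999. It called 2 of 16371 genes, 0.0122%, and none of the 6 members, where 317 genes had an unadjusted p under 0.05. Cd93 itself was not called by the same edgeR test, at a log2 fold change of -2.32 (SE 0.25) and an adjusted p of 0.2105. When the table entered the edgeR model as a block, Zfp503 was called, at -2.14 with an adjusted p of 0.0106, where 0.177% of genes were called. Without WT 4 it was also called, at -3.01 with an adjusted p of 1.74e-08, where 1.82% of genes were called. Without WT 1 the log2 fold change was -0.996 with an adjusted p of 0.9999, so that library moves the estimate by more than 2-fold.

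Zfp503 was the member that was lower in KO within both tables. The log2 ratio was -2.59 for KO 6 over WT 1 and -1.50 for KO 5 over WT 4, and a drop of at least 2-fold in both tables was found in 0.360% of tested genes. Across the tables the ratio was -3.51 for KO 5 over WT 1 and -0.58 for KO 6 over WT 4. In the authors' deposited tables, which compare 1 library with 1 library, Zfp503 had log2 fold changes of -2.639 and -1.537 with adjusted p-values of 2.93e-72 and 8.68e-09. The authors' deposited tables have 4.67% of genes in table A and 2.31% in table B past the same limits, an adjusted p under 0.05 and a 2-fold change.

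**Figure D1:**
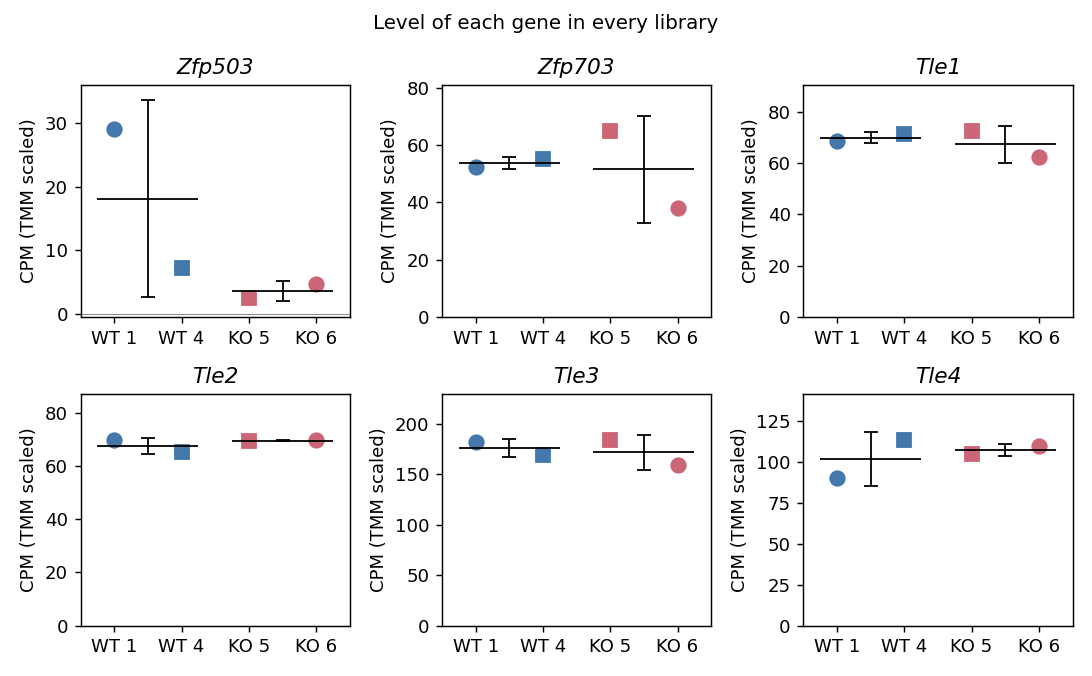
Level of each gene in CPM, scaled by TMM, in the 4 libraries (circles are libraries of table A, squares of table B; blue is WT, red is KO); black lines are means and bars the SD over 2 libraries. For Zfp503, WT 1 at 29.1 CPM stands far above the other libraries, which lie between 2.45 and 7.16 CPM, while for Tle2 all 4 libraries lie between 65.4 and 69.8 CPM.

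Zfp703, the closest relative of Zfp503, did not share its pattern. The gene (ENSMUSG00000085795, chromosome 8, 26977325 to 26981461, plus strand) received 928 (WT 1), 941 (WT 4), 1135 (KO 5) and 619 (KO 6) counts, or 52.1, 55.2, 64.7 and 38.1 CPM. The WT libraries lay between the KO libraries, so the groups overlapped, and the difference was within the KO, where KO 6 was 0.589 times KO 5. The gap between the KO libraries was wider than in 92.9% of tested genes. The WT mean was 53.7 ± 2.17 CPM and the KO mean 51.4 ± 18.8 CPM (SD, n = 2 each). The log2 fold change was -0.06 (SE 0.23, 95% interval -0.62 to 0.50, edgeR adjusted p 0.9999). The tables gave opposite signs, -0.45 in table A and 0.23 in table B, as in 54.8% of tested genes, and without KO 6 the pooled value was 0.27.

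The balance of the NET genes, compared per kilobase of merged exons, differed widely between libraries. Zfp703 was 2.23 (WT 1), 9.59 (WT 4), 32.8 (KO 5) and 9.99 (KO 6) times as abundant per kilobase as Zfp503. WT 4 and KO 6 were alike in this ratio although they carry different genotypes. The summed level of both genes was 22.3 (WT 1), 17.98 (WT 4), 19.7 (KO 5) and 12.4 (KO 6) CPM per kilobase.

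The 4 Groucho genes differed little between genotypes, and none passed the test. Tle1 (ENSMUSG00000008305, chromosome 4, 72117142 to 72200919, minus strand) received 1219 (WT 1), 1215 (WT 4), 1268 (KO 5) and 1011 (KO 6) counts. Its levels of 68.5, 71.3, 72.3 and 62.3 CPM overlapped between genotypes, with the lowest value in KO 6. The log2 fold change was -0.05 (SE 0.11, 95% interval -0.33 to 0.22).

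Tle2 was the steadiest of the members. The gene (ENSMUSG00000034771, chromosome 10, 81574561 to 81590845, plus strand) had 1242 and 1114 counts in WT and 1217 and 1133 in KO 5 and KO 6, or 69.8, 65.4, 69.4 and 69.8 CPM. Its highest library was 1.07 times its lowest, and its log2 fold change was 0.04 (SE 0.10, 95% interval -0.19 to 0.28).

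Tle3 had the most counts of the 6 genes. The gene (ENSMUSG00000032280, chromosome 9, 61372366 to 61418497, plus strand) received 3249 (WT 1), 2889 (WT 4), 3227 (KO 5) and 2593 (KO 6) counts, or 183, 170, 184 and 160 CPM. As for Tle1, KO 6 was the lowest library and KO 5 the highest, so the WT values lay inside the range of the KO values. The log2 fold change was -0.04 (SE 0.12, 95% interval -0.32 to 0.25).

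Tle4, known in the cortex as a gene of deep-layer corticothalamic neurons, had its lowest value in WT 1. The gene (ENSMUSG00000024642, chromosome 19, 14448072 to 14598051, minus strand) received 1608 (WT 1), 1936 (WT 4), 1842 (KO 5) and 1787 (KO 6) counts, or 90.4, 114, 105 and 110 CPM. The KO libraries lay between the WT libraries, and the log2 fold change was 0.08 (SE 0.13, 95% interval -0.24 to 0.39). For each of the 4 Tle genes the edgeR adjusted p was 0.9999, and the intervals exclude a 2-fold change in either direction for these libraries.

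Within the tables the signs of all 4 Tle ratios disagreed, which held for 54.8% of tested genes. They were -0.14 and 0.02 for Tle1, -0.0006 and 0.09 for Tle2, -0.19 and 0.12 for Tle3, and 0.28 and -0.11 for Tle4, each for table A and then table B. None reached 2-fold in the authors' deposited tables. The authors' deposited tables give Tle4 log2 fold changes of 0.2603 (adjusted p 2.06e-06) in table A and -0.1048 (0.1121) in table B. For Tle3 the authors' deposited tables have -0.2174 (1.56e-07) and 0.1267 (0.007116), under 0.05 in opposite directions, and so they do for Zfp703, at -0.4762 (2.75e-09) and 0.2375 (0.002697). Tle1 is under 0.05 in table A alone of the authors' deposited tables, at -0.1619 (0.03171), and Tle2 in neither.

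**Figure D2:**
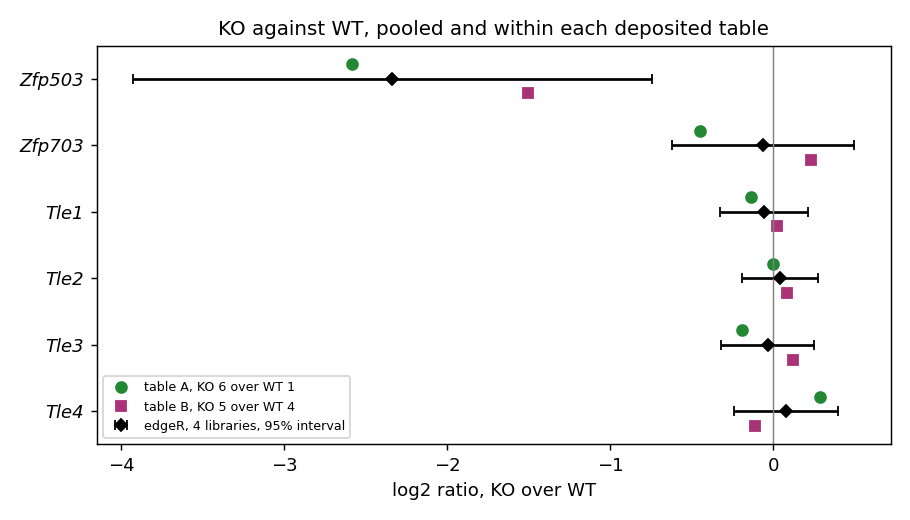
Log2 ratio of KO over WT for the 6 genes; diamonds are edgeR estimates from 4 libraries with 95% intervals, circles are KO 6 over WT 1 and squares KO 5 over WT 4. Zfp503 is below 0 in both tables, at -2.59 and -1.50, while the circles and squares of the other 5 genes lie on opposite sides of 0, with Tle2 at -0.0006 in table A.

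Per kilobase of merged exons, Tle4 was the most abundant of the 6 genes, with a mean of 18.4 CPM per kilobase over the 4 libraries, followed by Zfp703 at 15.5, Tle3 at 14.9, Tle2 at 11.02, Tle1 at 7.87 and Zfp503 at 2.57. Over the libraries Zfp703 (11.2 to 19.1) overlapped with both Tle4 (15.8 to 19.9) and Tle3 (13.7 to 15.8), so the order of these neighbours is not beyond their spread. Tle1 stayed between 7.15 and 8.30, below every value of Tle2 (10.5 to 11.2) and above every value of Zfp503 (0.582 to 6.89). Merged exons include alternative ends that these libraries may not use, so the order between genes depends on the annotation.

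The make-up of the Groucho pool was compared as shares, with no test. Of the summed level of Tle1 to Tle4 per kilobase, Tle4 held 34.4% in WT and 35.9% in KO, Tle3 29.2% and 28.1%, Tle2 20.97% and 21.3%, and Tle1 15.5% and 14.7% (means of 2 libraries). For Tle2, Tle3 and Tle4 these genotype means lay closer together than the shares of WT 1 and WT 4, and Tle4 held 31.3% in WT 1 and 37.5% in WT 4. The summed level ran from 50.6 CPM per kilobase in WT 1 to 53.7 in KO 5.

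Of the remaining Groucho family, Aes and Tle6 were tested and neither passed. Aes (also called Tle5), a short relative that lacks the repeat domain through which full-length Groucho proteins bind partners, averaged 274 ± 0.871 CPM over the WT libraries and 279 ± 14.8 CPM over the KO libraries (SD, n = 2 each). Its log2 fold change was 0.02 (SE 0.11, 95% interval -0.23 to 0.28), and at 82.9 CPM per kilobase it was more abundant than any member. Tle6, a divergent relative known from oocytes, had 42 and 39 counts in WT against 34 and 31 in KO, and its log2 fold change was -0.27 (SE 0.31).

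Factors that recruit Groucho had a median difference near 0. Of 29 listed, 17 were tested, 0 passed in either direction, 6 were higher and 11 lower. The median was -0.01 on the log2 scale against -0.003 over all tested genes, and it was 0.12 without WT 1 and 0.14 without KO 6. Hes6, a neuronal relative of the Hes repressors, had a log2 fold change of -0.002 (SE 0.11), and Hes1, a Notch target and Groucho partner, -0.12 (SE 0.22). Of the 17 tested, 11 lay within 0.25 of 0 on the log2 scale, a smaller share than the 77.7% of all tested genes.

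Six3 and Gsx2, homeobox genes of the ventral forebrain, were the Groucho partners with the smallest p. Six3 received 508 (WT 1), 68 (WT 4), 27 (KO 5) and 46 (KO 6) counts, so that, as for Zfp503, WT 1 stood apart and KO 5 was lowest. Its log2 fold change was -2.90 (SE 0.87, edgeR adjusted p 0.9999). Gsx2 had 78, 23, 2 and 18 counts in the same order of libraries and a log2 fold change of -2.24 (SE 0.90). On the other side Lef1, a nuclear effector of Wnt signalling that binds Groucho, had 73 and 130 counts in WT against 181 and 125 in KO and a log2 fold change of 0.62 (SE 0.34). Hes7, an oscillating repressor with 6 to 13 counts a library, had 0.68 (SE 0.52).

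The corepressor machinery had the smallest differences of the lists examined. All 16 genes of deacetylases, their scaffolds and NET complex partners were tested, 0 passed, 7 were higher and 9 lower, and all 16 lay within 0.25 of 0 with a median of -0.02, which was 0.02 without WT 4 and 0.06 without KO 6. Hdac1, the gene of a histone deacetylase used by Groucho, averaged 78.5 ± 11.3 CPM over the WT libraries and 72.0 ± 5.58 CPM over the KO libraries (SD, n = 2 each), with a log2 fold change of -0.12 (SE 0.13). Hdac2, its paralog, averaged 405 ± 3.36 and 393 ± 4.78 CPM, and its log2 fold change was -0.04 (SE 0.10). Xiap, the gene of a ubiquitin ligase that modifies TLE3, had -0.08 (SE 0.11), the corepressor gene Rcor1 -0.11 (SE 0.17) and the histone-binding subunit gene Rbbp7 -0.07 (SE 0.10).

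Sp family genes, whose proteins share a short motif with the NET family, had a median of -0.12 over 7 tested, 6 lower and 1 higher, with 0 passing, and the median was -0.22 without WT 4 or without KO 6. Sp9 and Sp8, which act in ventral forebrain neurons, stood at -1.17 (SE 0.40) and -0.45 (SE 0.26) on the log2 scale. The counts of Sp9 were 628 (WT 1), 246 (WT 4), 172 (KO 5) and 200 (KO 6), again with WT 1 highest and KO 5 lowest. Sp4 had -0.19 (SE 0.13), and Sp5, a Wnt target, 0.45 (SE 0.40).

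**Figure D3:**
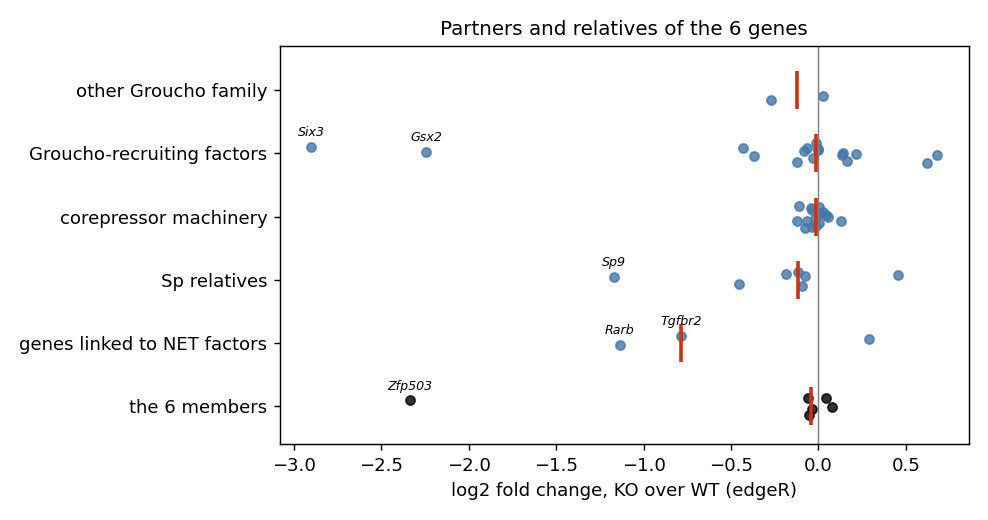
Log2 fold change of KO over WT by edgeR for the tested genes of 5 lists and for the 6 members (points; vertical scatter is only for legibility), with red bars at the median of each group. The 16 genes of the corepressor machinery lie within 0.25 of 0, while Six3 at -2.90, Gsx2 at -2.24 and Zfp503 at -2.34 stand apart on the left; none of the genes shown passed the test.

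Genes that earlier work links to NET factors or to the study's question had values on both sides of 0. Of 4 genes linked to NET factors 3 were tested, 1 higher and 2 lower with 0 passing. Stat3, the gene of a transcription factor that drives astrocyte differentiation, received 517 (WT 1), 543 (WT 4), 670 (KO 5) and 590 (KO 6) counts. Both KO libraries were above both WT libraries, at 37.3 ± 1.33 against 30.5 ± 1.99 CPM (SD, n = 2 each), as in 11.5% of tested genes. The log2 fold change was 0.29 (SE 0.12, 95% interval 0.01 to 0.58, edgeR adjusted p 0.9999), with 0.32 in table A and 0.26 in table B. Gfap, the astrocyte filament gene, had 20 and 53 counts in WT against 75 and 89 in KO. Its log2 fold change was 1.20 (SE 0.48, edgeR adjusted p 0.9999), so it was not called. The ratio was 2.17 in table A, which holds the lower WT library, and 0.45 in table B. Tgfbr2, a receptor gene reported as repressed by Zfp703 in other tissues, had 280 and 138 counts in WT against 123 and 111 in KO, and its log2 fold change was -0.78 (SE 0.33). Rarb, a retinoic acid receptor gene of the striatum, had 88, 32, 20 and 32 counts in WT 1, WT 4, KO 5 and KO 6 and a log2 fold change of -1.14 (SE 0.54).

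The 10 genes with profiles nearest to Zfp503 over the 4 libraries held 2 of the ventral forebrain list (Isl1 and Six3). Of the others, 2 were on the meningeal list (Col1a2 and Dcn) and 6 on no list. The lists are short, so a gene on no list, such as Gjb2, can still belong to either tissue, and the tally does not count tissues. Nearness was the Euclidean distance between log2 CPM profiles, each centred on its own mean, among 13643 other genes whose average log2 CPM reached 1. In order they were Gjb2 (distance 0.41), H19, Postn, Col1a2, Serpinf1, Isl1, Six3, F13a1, Dcn and Igf2 (distance 0.70). Gjb2 encodes a gap junction protein of the meninges, with counts of 106 (WT 1), 17 (WT 4), 5 (KO 5) and 14 (KO 6). Isl1, a homeobox gene of striatal neurons, had 587, 125, 35 and 110 counts, and the collagen gene Col1a2 2149, 319, 126 and 211. In all 10, WT 1 was the highest library and KO 5 the lowest, which follows from choosing them by nearness to Zfp503. For Zfp703 the nearest genes were Sgo1, Tcf7l1, Rhbdl3, Cdt1 and Actb (distances 0.02 to 0.09). They had KO 5 highest and KO 6 lowest, again because they were chosen by nearness. Sgo1 and Cdt1 act in chromosome cohesion and replication licensing, and Tcf7l1 is a Groucho-binding effector of the Wnt pathway.

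Sums of the ventral forebrain and meningeal lists moved with Zfp503 over the libraries. The 28 ganglionic eminence and striatum genes found in both tables, none at 0 counts in any library, summed to 1973 (WT 1), 1357 (WT 4), 1115 (KO 5) and 1254 (KO 6) CPM. Meis2, Dlx1 and Bcl11b had the highest levels of this list in each library. Six3, Gsx2, Sp8, Sp9 and Rarb, described above under other lists, are also in this list, so their values are counted again here. Expression of the listed genes by cells of the cortex itself was not examined. Of 27 tested, 25 were lower in KO, 23 of them in both tables, with 0 passing and -0.88 as the median log2 fold change, which was -0.27 without WT 1. Over all genes, 8349 of 16371 tested were lower in KO, and 54.8% had opposite directions in the tables. Nkx2-1, Dlx5, Meis1 and Drd2, transcription factor and dopamine receptor genes of the ventral forebrain, had -3.14 (SE 0.88), -1.22 (SE 0.30), -1.14 (SE 0.33) and -1.72 (SE 0.51). The 2 higher in KO were Drd1 at 0.18 (SE 0.22) and Ppp1r1b at 0.13 (SE 0.13), and Lhx6 had -0.02 (SE 0.12). The 16 meningeal and fibroblast genes, also with none at 0, summed to 565 (WT 1), 82.4 (WT 4), 42.4 (KO 5) and 79.9 (KO 6) CPM. All 14 tested were lower in KO, 11 of them in both tables, with 0 passing and a median of -2.29 that turned to 0.31 without WT 1. Among them were the matrix genes Col1a1 at -2.57 (SE 0.56), Lum at -3.12 (SE 0.89) and Col3a1 at -3.31 (SE 0.95). Ptgds had -0.09 (SE 1.01), with 297 (WT 1), 43 (WT 4), 39 (KO 5) and 259 (KO 6) counts. The other 3, Slc6a13, Foxc1 and Cyp1b1, were lower in KO in table A and higher in table B.

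Both marker sums ranked the libraries as Zfp503 did, WT 1, WT 4, KO 6 and then KO 5. The share of all tested genes with this order was not counted. For KO 6 over WT 4 the list medians were -0.11 for the ventral forebrain and 0.71 for the meninges, beside -0.58 for Zfp503. For KO 5 over WT 4 they were -0.67 and -0.44, beside -1.50. Genes of endothelial cells, where Cd93 is best known, summed to 363, 225, 245 and 241 CPM in WT 1, WT 4, KO 5 and KO 6, and their 12 members had a median of -0.33 with -0.66 in table A, 0.07 in table B and 0.05 without WT 1. Cortex markers had a median of 0.17 that was 0.03 without WT 1 and -0.06 without KO 5, with 12 of 14 higher, 9 of 14 opposite between the tables, and Emx2 at 0.36 (SE 0.17) as the gene of smallest p. The part of the ventral forebrain and meningeal markers in the Zfp503 difference was not tested.

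**Figure D4:**
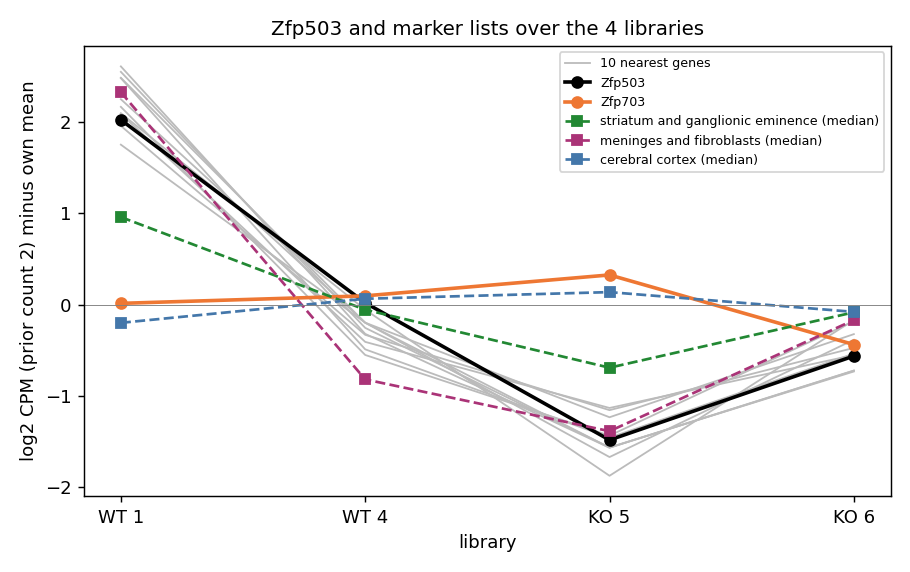
Log2 CPM (prior count 2) minus its own mean in each library for Zfp503 (black), its 10 nearest genes (grey) and Zfp703 (orange), with the medians of 3 marker lists (dashed); lines join libraries only to show profiles, which have no order. Zfp503 and the ventral forebrain and meningeal medians are highest in WT 1 and lowest in KO 5, as are the nearest genes, which were chosen by this profile. Zfp703 is lowest in KO 6.

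Around Zfp503, the gene next to it in the genome also had its highest count in WT 1, though it had few counts. C130012C08Rik (ENSMUSG00000103160, chromosome 14, 21992436 to 21996100, plus strand), a transcript of uncertain status annotated 2834 bases beyond the start of Zfp503 and on the opposite strand, received 30 (WT 1), 6 (WT 4), 2 (KO 5) and 5 (KO 6) counts. Its level in WT 1 was 4.79-fold above WT 4, but with so few counts the gene did not pass the filter and was not tested. The 6, 2 and 5 counts of the other libraries are too few to rank them. How many genes elsewhere are highest in WT 1 was not counted. The other 6 neighbours within 500 kb lie beyond the other end of the gene, 127027 bases or more away. Of these, 5 were tested, 3 higher and 2 lower, with 0 passing and a log2 fold change of 0.003 as the median. Kat6b, a histone acetyltransferase gene, had 0.15 (SE 0.10) and Vdac2, a mitochondrial channel gene, -0.01 (SE 0.10). Around Zfp703, 6 of 8 neighbours were tested, 2 higher and 4 lower with 0 passing, and Erlin2, the nearest tested one, had 0.03 (SE 0.10).

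The 250 bases before the annotated start of Zfp503 are shown because they lie between the gene and this neighbour (RefSeq table on GRCm38.p6, chr14:21989602-21989851, minus strand, all in lower case because no searched motif was found).
Zfp503 upstream: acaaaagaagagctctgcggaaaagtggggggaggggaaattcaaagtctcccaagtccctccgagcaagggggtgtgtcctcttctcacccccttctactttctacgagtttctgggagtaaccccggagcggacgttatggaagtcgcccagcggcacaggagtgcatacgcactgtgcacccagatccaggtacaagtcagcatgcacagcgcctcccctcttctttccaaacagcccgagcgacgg
The window holds 13 CpG dinucleotides, where the median of 32851 windows of this length is 6 and 31.5% hold at least as many. On both strands it has 0 matches to the GC box GGGCGG, found in 32.7% of windows, 0 to the RBPJ core TGGGAA (21.6%), 0 to the E-box CACGTG (6.02%) and 0 to the STAT motif TTCNNNGAA (7.02%). The Tle1 window holds 35 CpG dinucleotides and 3 GC boxes, and those of Tle2 and Tle3 hold 21 and 17 CpG with 3 and 0 GC boxes. For Tle4 the table lists a pair of windows, with 24 and 35 CpG. The table matched 5 of the 6 members, all but Zfp703.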

How the data were processed

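RNA-seq counts per Ensembl gene were deposited by the authors in 2 tables of 1 KO and 1 WT library, as raw counts per the file headers. Tools listed in the submitters' processing notes, without their roles, are HTSeq 0.6.0, TopHat2 2.0.12 and Bowtie2 2.2.3, and the listed build is mm9. The deposited positions are those of GRCm38, since 91.64% of the 20344 genes also in GENCODE mouse release 21 have its start and end. The deposited log2 fold changes and adjusted p-values set a single KO library against a single WT library, by a tool not given in the sources used here.

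Genes in both tables were filtered with filterByExpr, scaled by TMM and tested with edgeR 4.0.16 (R 4.3.3), quasi-likelihood test, 2 WT against 2 KO libraries, two-sided, Benjamini-Hochberg over 16371 genes, threshold 0.05. SE is the log2 fold change over the root of F. For ratios of single libraries a prior count of 2 was added before taking log2 CPM. The script was tested on simulated counts. Alternatives were DESeq2 1.42.0, limma-voom (limma 3.58.1), DESeq2 size factors, no filter, the deposited table as a block and leaving out each library. Library totals of 16318317 to 17586157 put 3 counts at 0.171 to 0.184 CPM, for counting error only. Libraries of a genotype differed beyond sampling noise (chi-square per degree of freedom 16.3 in WT, 17.9 in KO).

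The members and lists were chosen with earlier results of these data known. Named are the members, up to 4 genes of smallest p per list, partner genes set in advance, profile neighbours and genes within 500 kb. Hes1, Hes6, Meis2, Dlx1, Bcl11b, Drd1, Ppp1r1b, Lhx6, Ptgds, Slc6a13, Foxc1 and Cyp1b1 were named after their values were seen. A listed gene is not reported here by name. Levels between genes are per kilobase of merged GENCODE exons.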

Additional observations from a re-analysis of the deposited data

How the results depend on the processing

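The libraries of WT and KO share no replicate number, so the paired fit used the deposited table, which holds 1 library of each genotype, as its block. The genes called went from 2 to 29 with the table as a block and 8 with DESeq2, and ran from 5 (without KO 5) to 312 (without WT 4) when 1 library was left out. Zfp503 kept its lower direction in all 9 alternatives. With the table as a block it was called, at -2.142 (edgeR adjusted p 0.0106). Over the libraries left out its log2 fold change ran from -3.013 to -0.9956. In fits with a library left out, the lone library of a genotype is assumed to vary like the other genotype. No alternative called another member. Over the libraries left out, the log2 fold change ran from -0.493 to 0.2739 for Zfp703 and -0.1661 to 0.05302 for Tle1. It ran from -0.1399 to 0.06816 for Tle3 and -0.07836 to 0.2563 for Tle4, so these 4 have no settled direction. Tle2 ran from 0.0009244 to 0.09095, with its lower end almost at 0, and its tables differed in sign, so its direction is not settled either.

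List medians over the libraries left out ran from -0.1558 to -0.08737 for Aes and Tle6, -0.08592 to 0.1428 for Groucho-recruiting factors, -0.07502 to 0.06058 for the corepressor machinery, -0.2234 to -0.09307 for Sp relatives, -1.178 to -0.2246 for genes linked to NET factors, -1.317 to -0.2679 for the ventral forebrain, -3.05 to 0.3072 for the meninges, -0.06307 to 0.2807 for the cortex, -0.5916 to 0.04903 for endothelial cells and -0.1558 to 0.2092 for the study genes. The meningeal median without WT 1 was 0.3072; the cause was not tested. From raw counts without length, the shares in the Groucho sum became 16.48% for Tle1, 16.51% for Tle2, 41.81% for Tle3 and 25.2% for Tle4, since Tle3 has the longest exons.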
